A study of Peromyscus maniculatus and Peromyscus polionotus and Peromyscus maniculatus x Peromyscus polionotus with 18 samples.

Results

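The vasopressin and oxytocin system was described in whole brains of *Peromyscus* mice through 5 genes taken by name: the peptide genes Avp and Oxt and the receptor genes Avpr1a, Avpr1b and Oxtr. All 5 were among the 20731 named genes of the table for the parental species, and 4 were among the 11928 genes of the table of parental alleles in hybrids, which held no row for Avpr1b. The series compared *P. polionotus*, which digs long burrows with an escape tunnel, with *P. maniculatus*, which digs short simple ones, and with F1 hybrids of both. The 6 groups were *P. polionotus* after a burrowing trial, *P. polionotus* after a control trial, *P. maniculatus* after a burrowing trial, *P. maniculatus* after a control trial, F1 hybrids after a burrowing trial and F1 hybrids after a control trial, with 3 libraries each. All animals were adult males of about 50 to 80 days that had been through 2 earlier trials in the sand-filled enclosures, and whole brains were frozen at the end of the test trial. The sources used here do not say what the control trial consisted of or which species was the mother of the hybrids. Each library was taken as 1 animal, since the protocols speak of individual animals, and p-values measure only the spread between these samples.

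Vasopressin and oxytocin are short peptides made mainly by neurons of the hypothalamus, cut from longer precursors that also carry a neurophysin, and released both into the blood and within the brain. Vasopressin is known for water balance, stress responses and male social behaviour, and oxytocin for birth, lactation and social bonding. Both act on related receptors coupled to the G protein Gq: V1a (Avpr1a) in many brain regions, V1b (Avpr1b) chiefly in pituitary corticotrophs and hippocampal area CA2 of rodents, and the oxytocin receptor (Oxtr). Avp and Oxt are sister genes that arose by duplication, lie next to each other and share a nearly identical neurophysin exon in mammals, so how reads of that exon were divided between them could change both values, and no source used here states it. In the RefSeq assembly HU_Pman_BW_mat_3.1 of *P. maniculatus bairdii*, Oxt is the nearest named gene before Avp on chromosome 4, Oxtr lies on chromosome 3, Avpr1a on 18 and Avpr1b on 11. Gene coordinates are left out because the build behind the deposited values is not given.

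Parental values are TPM, transcript abundances scaled to a common total, corrected for transcript length, which can be compared between genes but keep no read depth. In hybrids the values are counts of reads that could be given to 1 parental allele, with totals of 11415175 to 53906964 per animal. Along the leading principal component the parental libraries split by species. On the next one 3 libraries stood apart, polionotus burrowing replicate 3, polionotus control replicate 2 and maniculatus control replicate 3, and results that moved without these 3 libraries are given both ways. The neuronal marker Snap25 was abundant in every library (452 to 525 TPM in polionotus and 490 to 569 TPM in maniculatus brains), as the label of whole brain implies. In a bulk tissue, fewer cells of a type and less RNA per cell cannot be told apart.

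The first question was how the peptides and their receptors compare between species that build different burrows. Vasopressin mRNA was lower in *P. polionotus* than in *P. maniculatus*, oxytocin receptor and V1b receptor mRNA were higher, and oxytocin and V1a receptor mRNA did not pass the test. Of the 4 members with a mean of at least 1 TPM, which were tested together with all such genes, Oxtr was called higher in *P. polionotus* and Avp lower. Of all 14366 genes tested, 52.4% were called, 32.6% higher and 19.8% lower, so 2 calls among 4 members is near the background. After quantile normalization the 4688 genes called higher and 2841 lower became 3826 and 3857, and both members kept their calls. The test was limma's moderated test on log2(TPM + 1), with p-values adjusted by Benjamini-Hochberg over all 14366 genes and a call below 0.05.

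**Figure D1:**
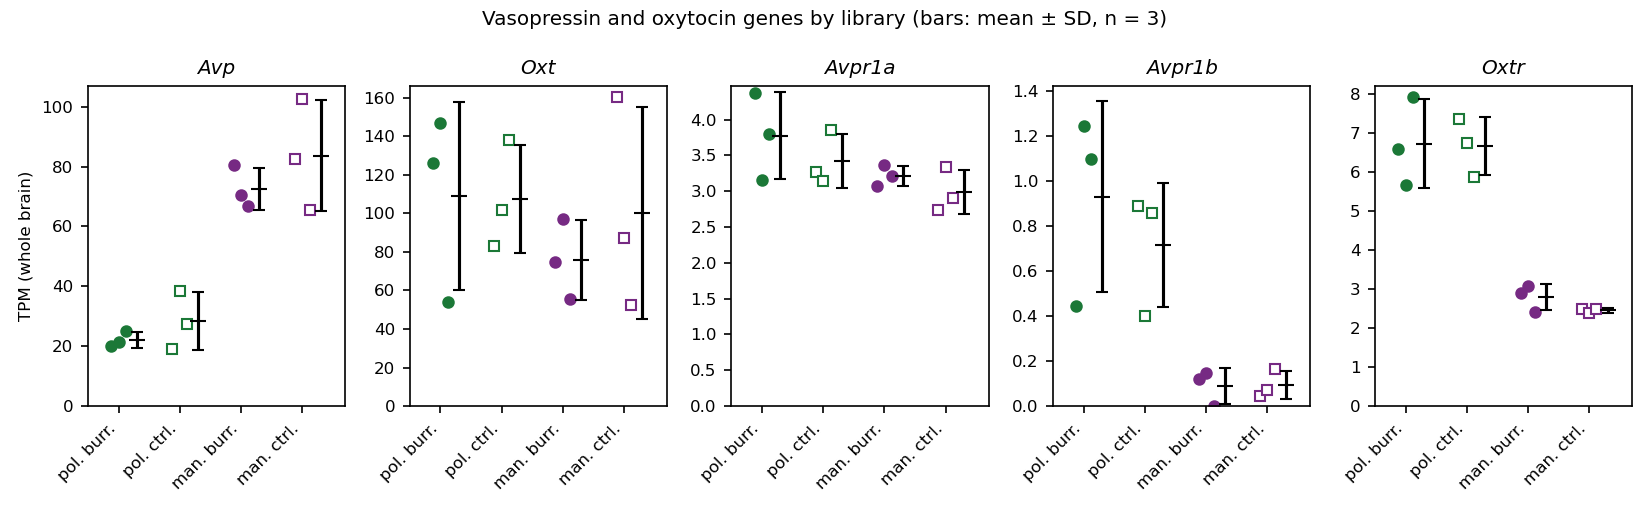
TPM of Avp, Oxt, Avpr1a, Avpr1b and Oxtr in the 12 parental libraries, 1 point per library, with pol. for *P. polionotus*, man. for *P. maniculatus*, burr. for burrowing and ctrl. for control. Bars beside the points are the mean and SD of 3 libraries. The species do not overlap for Avp, Avpr1b and Oxtr, and they overlap for Oxt and Avpr1a. Of all genes tested 52.4% were called between the species, and the share whose species do not overlap is not given here.

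Avp, the vasopressin precursor gene, stood at 19.96, 21.4 and 24.98 TPM in burrowing and 19.2, 38.6 and 27.3 TPM in control *P. polionotus*. In *P. maniculatus* it stood at 80.4, 70.4 and 66.9 TPM after burrowing and at 82.7, 103 and 65.5 TPM in controls. Every polionotus library lay below every maniculatus library, and the highest polionotus library, control replicate 2, was among the libraries that stood apart. For this gene and those below, such separation is a description only, since its share over all genes is not given here. The ratio of species means was 3.10 in favour of *P. maniculatus*, and the log2 difference of -1.62 had a 95% interval of -1.96 to -1.27 (adjusted p = 1.05e-05). Without the 3 libraries that stood apart it was -1.86 (adjusted p = 1.94e-05).

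Oxt, the oxytocin precursor gene, was the most abundant member. It stood at 126, 147 and 53.8 TPM in burrowing and 82.9, 102 and 138 TPM in control *P. polionotus*. In *P. maniculatus* it stood at 75.0, 97.1 and 55.8 TPM after burrowing and at 160, 87.2 and 52.5 TPM in controls. The species overlapped over nearly their whole range. The standard deviation over 6 libraries was 32.9% of the mean in *P. polionotus* and 44.8% in *P. maniculatus*, against 28.7% and 17.9% for Avp. The log2 difference was 0.32 (SE 0.31, adjusted p = 0.402).

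Within a library, the ratio of Oxt to Avp removes anything that scales both genes alike. It was 6.32, 6.87 and 2.15 in burrowing and 4.32, 2.64 and 5.05 in control *P. polionotus*. In *P. maniculatus* the ratio was 0.932, 1.38 and 0.834 after burrowing and 1.94, 0.849 and 0.802 in controls. Oxt thus exceeded Avp in every polionotus library, while in *P. maniculatus* it exceeded Avp in 2 of 6. The means were 4.56 ± 1.91 in *P. polionotus* and 1.12 ± 0.454 in *P. maniculatus* (SD, n = 6 each), and the ranges did not touch. The log2 difference of the ratio was 1.98, with p = 0.00216 by a two-sided exact permutation test over the 924 ways to split 12 libraries, the smallest that test can give (adjusted p = 0.00505 over 7 exact tests). The ratio is built from the same Avp and Oxt values, so its test is not separate support for the Avp difference. No share over all genes is given for such ratios. The lowest polionotus ratios belonged to burrowing replicate 3 and control replicate 2, both among the libraries that stood apart.

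**Figure D2:**
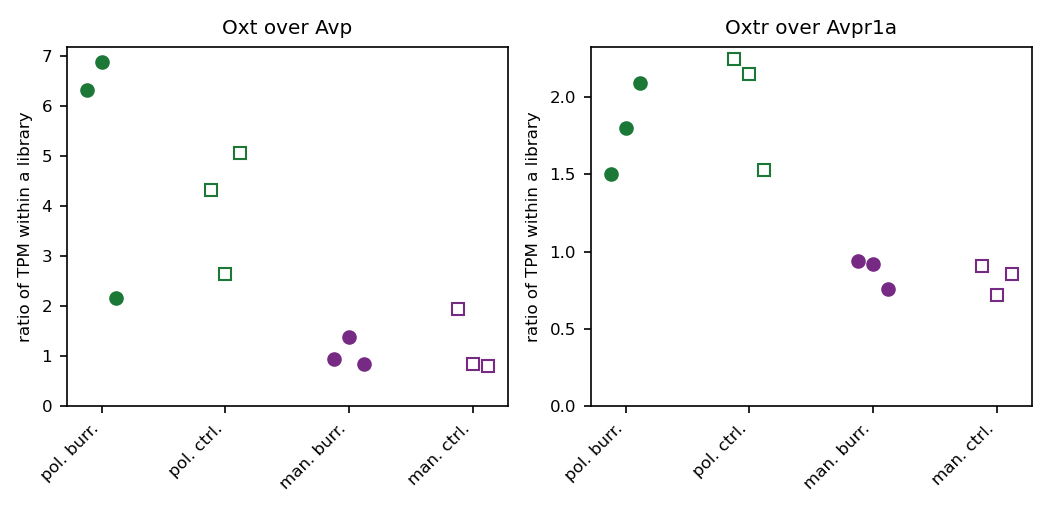
Ratio of TPM within each parental library, Oxt over Avp on the left and Oxtr over Avpr1a on the right, 1 point per library. Polionotus ratios run from 2.15 to 6.87 for the peptides and 1.50 to 2.25 for the receptors, above all maniculatus ratios, which end at 1.94 and 0.938.

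Oxtr, the oxytocin receptor gene, stood at 6.58, 5.67 and 7.93 TPM in burrowing and 7.36, 6.75 and 5.88 TPM in control *P. polionotus*. In *P. maniculatus* it stood at 2.89, 3.09 and 2.42 TPM after burrowing and at 2.48, 2.39 and 2.49 TPM in controls. The lowest polionotus library was well above the highest maniculatus library, at 2.55 times the level on average. The log2 difference was 1.08 with a 95% interval of 0.91 to 1.26 (adjusted p = 1.46e-06), and it was 1.31 with a pseudocount of 0.1 TPM, since the constant of 1 TPM shrinks changes of genes at such levels.

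Avpr1a, the V1a receptor gene, was nearly flat. It stood at 4.37, 3.16 and 3.79 TPM in burrowing and 3.27, 3.14 and 3.85 TPM in control *P. polionotus*, against 3.08, 3.36 and 3.21 TPM after burrowing and 2.74, 3.33 and 2.90 TPM in control *P. maniculatus*. The species overlapped, and the log2 difference was 0.16 with a 95% interval of -0.00024 to 0.32 (adjusted p = 0.0865). It passed in 1 of the alternatives, without polionotus burrowing replicate 2 (0.21, adjusted p = 0.0284). In *P. polionotus* Oxtr therefore stood above Avpr1a in all 6 libraries, at 1.89 ± 0.324 times its level, and in *P. maniculatus* below it in all 6, at 0.849 ± 0.092 times (SD, n = 6 each). The log2 difference of this ratio was 1.14 (exact permutation p = 0.00216, two-sided; adjusted p = 0.00505 over 7 exact tests). It uses the same Oxtr values as the species test and is not separate support for it.

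Avpr1b, the V1b receptor gene, was the least abundant member and fell under the 1 TPM minimum, with a mean of 0.457 TPM over the 12 libraries. It stood at 0.447, 1.24 and 1.10 TPM in burrowing and 0.889, 0.400 and 0.857 TPM in control *P. polionotus*. In *P. maniculatus* it stood at 0.119, 0.148 and 0 TPM after burrowing and at 0.0435, 0.0726 and 0.165 TPM in controls. Every polionotus library exceeded every maniculatus library, with a ratio of means of 8.99 that rests on low values of unknown depth. The difference on log2(TPM + 1) was 0.72 (exact permutation p = 0.00216, two-sided; adjusted p = 0.00505 over 7 exact tests), and limma without the minimum gave the same difference (SE 0.12, adjusted p = 0.00128). In that setting 9012 of 20731 genes were called, so such a call was common. Within trials, limma without the minimum gave 0.80 after burrowing (adjusted p = 0.00807) and 0.64 in control animals (adjusted p = 0.0204). Of the 20731 genes, 5748 were called after burrowing and 6604 in control animals.

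The order of levels followed from these values. In *P. polionotus* Oxt stood highest (108 ± 35.6 TPM), followed by Avp (25.2 ± 7.24), Oxtr (6.70 ± 0.858), Avpr1a (3.597 ± 0.493) and Avpr1b (0.822 ± 0.340), and no neighbours in that order overlapped (SD, n = 6). In *P. maniculatus* Oxt (88.0 ± 39.4 TPM) and Avp (78.1 ± 14.0) overlapped, as did Avpr1a (3.10 ± 0.246) and Oxtr (2.63 ± 0.289), while Avpr1b (0.0915 ± 0.064) stood apart below them (SD, n = 6).

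The species differences were also seen within each trial. After burrowing, the log2 difference was -1.67 for Avp (SE 0.22, adjusted p = 0.000232) and 1.02 for Oxtr (SE 0.11, adjusted p = 7.11e-05), where 34.1% of all genes were called, 20% higher in *P. polionotus* and 14.1% lower. In control animals it was -1.56 for Avp (SE 0.22, adjusted p = 0.000329) and 1.15 for Oxtr (SE 0.11, adjusted p = 3.11e-05), where 39.6% of genes were called, 26.8% higher and 12.9% lower. Oxt and Avpr1a passed in neither trial. For Oxt in control animals the sign depended on the libraries, with 0.22 over all of them and -0.14 without the 3 that stood apart, neither passing (adjusted p = 0.716 and 0.781).

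Markers of the regions that hold these genes were measured beside them. Of 16 hypothalamus genes all were in the table and 11 were tested. Lhx9 was higher in *P. polionotus* (0.49), and the melanocortin precursor Pomc (-1.03) and the melanin-concentrating hormone precursor Pmch (-0.41) were lower, while the other 8, among them Npy, Hcrt and Nkx2-1, did not pass. Their median log2 difference was 0.004, against 0.06 over all genes tested. The summed level of the list was 260 to 306 TPM in *P. polionotus* and 285 to 364 TPM in *P. maniculatus*. Their part in the Avp difference was not tested.

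V1b receptor mRNA is known from anterior pituitary, which a brain dissection can carry along. The 9 anterior pituitary genes in the table summed to 2.86 to 5.62 TPM in *P. polionotus* and 2.69 to 6.74 TPM in *P. maniculatus*, and of the 2 that were tested none passed (Cga stood at -0.53). Tbx19, a factor of the corticotrophs that carry Avpr1b, ran from 0.174 to 0.375 TPM in *P. polionotus* and from 0.46 to 1.47 TPM in *P. maniculatus*, the opposite order to Avpr1b. Pou1f1, a factor of other pituitary hormone cells, ran from 0.0526 to 0.337 TPM in *P. polionotus* and from 0 to 0.0133 TPM in *P. maniculatus*, the same order as Avpr1b. Fshb and Pitx1 were at 0 in at least 1 library of each species, and the part of pituitary tissue in the Avpr1b difference was not tested. Among genes of hippocampal area CA2, 3 of 6 tested were higher in *P. polionotus* and 0 lower: Necab2 (0.56), the proteoglycan Vcan (0.38) and Cacng5 (0.22). Over all genes 52.4% were called and 32.6% were called higher, so 3 of 6 is near the background. Rgs14 (0.01) and Amigo2 (-0.10), both defining markers of CA2, did not pass. Hindbrain and spinal cord Hox genes, which vary with the extent of dissection, were lower for 2 of 13 tested over both trials (Hoxd4 at -0.66 and Hoxb4 at -0.55). In control animals 10 of the 13 were called lower in *P. polionotus* and 0 higher (median -0.91), and after burrowing 0 were called lower and 1 higher (median 0.06). Their summed level was 7.79 to 39.5 TPM in control *P. polionotus* and 36.3 to 58.2 TPM in the other parental libraries, and its part in the species differences of control animals and in the trial comparisons was not tested.

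The F1 hybrids ask whether a difference between species persists between parental alleles held in 1 animal, where both share the same cells. All hybrids carry the same cross label, so the allele and the parent it came from cannot be told apart here. Of the 4 members in the allele table, Oxtr was called in favour of the polionotus allele, and Avp, Oxt and Avpr1a did not pass. Over all 11928 genes, 55.7% were called, 34.2% higher on the polionotus allele and 21.5% lower, by edgeR's quasi-likelihood test with the animal as a block and Benjamini-Hochberg adjustment. The share of allele counts that fell on the polionotus allele, summed over all genes, was 52.6% to 53.1% per animal. Intervals for single animals are 95% Wilson intervals and cover counting error only.

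**Figure D3:**
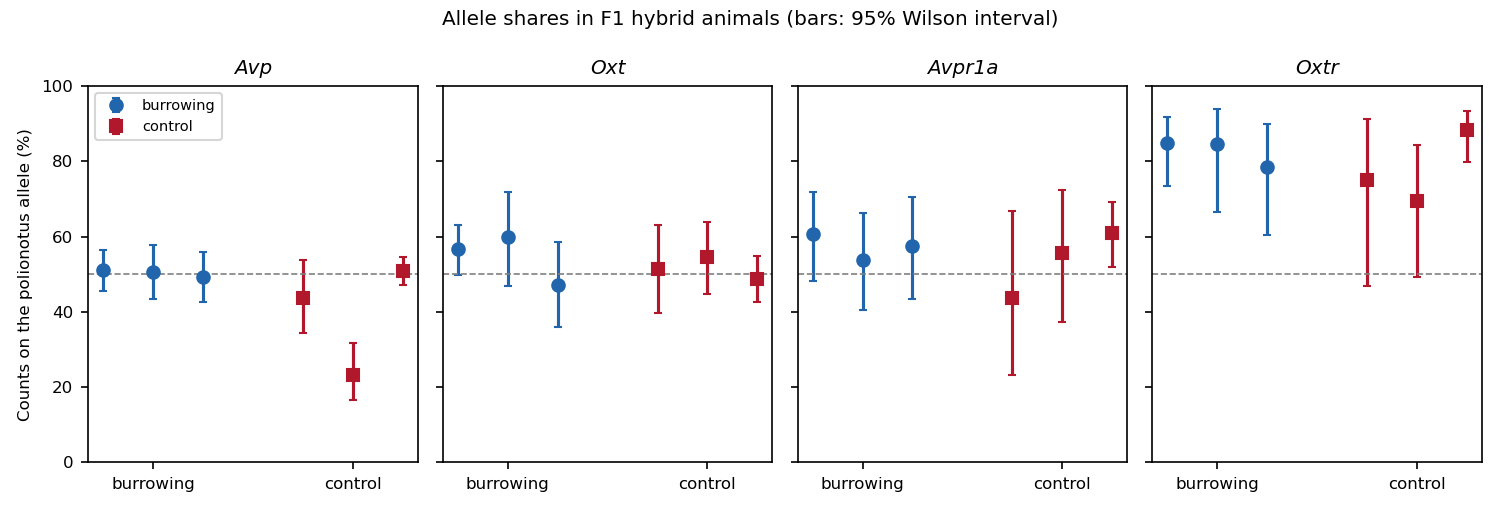
Polionotus share of the allele counts in each F1 animal for Avp, Oxt, Avpr1a and Oxtr, with burrowing animals left of control animals, 95% Wilson intervals as bars and a dashed line at 50%. Oxtr lies above 69% in all 6 animals, and Avp lies between 43.8% and 51.1% in all but control replicate 2, at 23.3%.

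For Oxtr the polionotus allele carried 50 of 59, 22 of 26 and 22 of 28 counts in burrowing hybrids and 9 of 12, 16 of 23 and 75 of 85 counts in control hybrids. The shares were 84.7%, 84.6% and 78.6% in burrowing and 75%, 69.6% and 88.2% in control animals, above 50% in 6 of 6. The deepest animal, control replicate 3, had an interval of 79.7% to 93.5%, whereas control replicate 1 with 12 counts had one of 46.8% to 91.1%. The allele log2 difference was 2.17 (SE 0.24, adjusted p = 0.000478). The mean share was 80.1% ± 7.04 (SD, n = 6), while the ratio of geometric mean TPM between the species would give a share of 71.8%.

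For Avp the alleles were near balance in most animals, unlike the species. The polionotus allele carried 164 of 321, 90 of 178 and 107 of 217 counts in burrowing hybrids, or 51.1%, 50.6% and 49.3%. In control hybrids it carried 42 of 96, 27 of 116 and 358 of 704 counts, or 43.8%, 23.3% and 50.9%. A species ratio carried over to the alleles would give a share of 24.1%, a value reached in 1 of 6 animals, control replicate 2, with an interval of 16.5% to 31.7%. The deepest animal, control replicate 3, had an interval of 47.2% to 54.5%. The allele log2 difference was -0.28 (SE 0.25, adjusted p = 0.362), and without control replicate 2 it was -0.04 (adjusted p = 0.905).

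For Oxt and Avpr1a the allele difference did not pass, against a median log2 allele difference of 0.11 over all genes. For Oxt the polionotus share was 56.7%, 60% and 47.1% in burrowing and 51.5%, 54.5% and 48.6% in control hybrids, from 55 to 255 counts per animal (log2 0.17, SE 0.11, adjusted p = 0.239). For Avpr1a it was 60.7%, 53.7% and 57.4% in burrowing and 43.8%, 55.6% and 60.8% in control hybrids, from 16 to 120 counts per animal. Its log2 difference of 0.38 (SE 0.14) just missed the threshold (adjusted p = 0.0528), and without control replicate 1, the animal with 16 counts, it passed (0.46, adjusted p = 0.017).

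**Figure D4:**
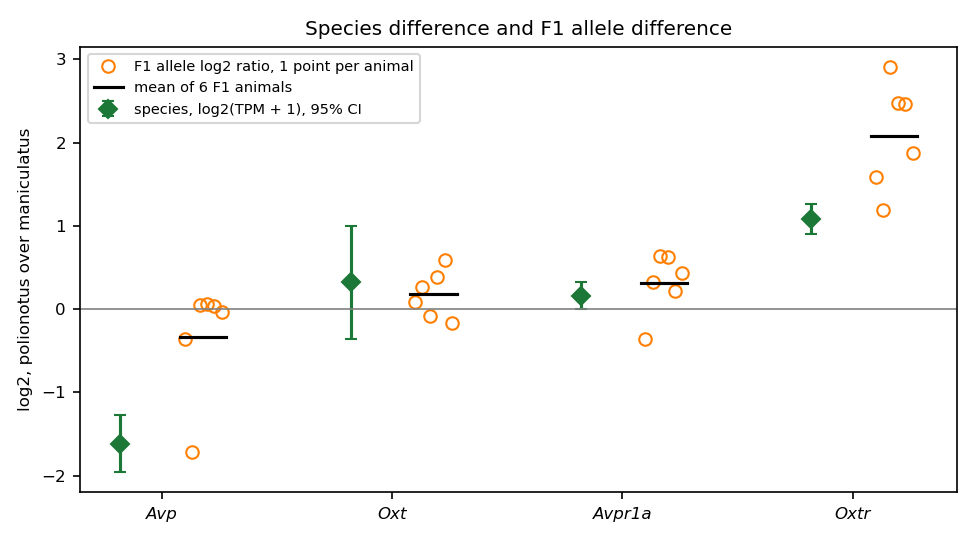
Log2 difference of polionotus over maniculatus for 4 genes: diamonds are the parental species difference on log2(TPM + 1) with its 95% interval, and circles are the log2 allele ratio of each F1 animal with their mean as a line. For Avp the species value of -1.62 lies below 5 of the 6 allele ratios, and for Oxtr both kinds of value are above 0.

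The difference between the species effect and the allele effect was tested in 1 limma model over 9989 genes present in both tables. For Avp the species difference was more negative than the allele difference by -1.36 (95% interval -1.92 to -0.79, adjusted p = 0.000642). Without F1 control replicate 2 it was -1.57 (adjusted p = 2.71e-05), and it passed under every alternative run, with values of -1.57 to -1.23. In this comparison 45.1% of genes were called, 20.1% higher and 25% lower, so such a gap was common. For Oxtr no direction can be given, because the low allele counts are shrunk by the constant added to them. The difference was 0.34 with a constant of 1 (adjusted p = 0.0424), -0.41 with 0.1 (adjusted p = 0.13) and -0.65 with 0.01 TPM and 0.5 of a read (adjusted p = 0.0481). Oxt (0.20, SE 0.37) and Avpr1a (-0.007, 95% interval -0.23 to 0.22) did not pass.

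How reads were given to alleles is not stated, and allele values of some genes were far from the species values. The synaptic genes Syt1 and Snap25 had allele log2 differences of -3.54 and 1.57, but species differences of -0.18 and -0.08. Near Avp, the named genes on either side had mixed values. Mrps26, a mitochondrial ribosomal protein gene, was lower in *P. polionotus* (-0.29) and on its allele (-0.68), and Ubox5 was higher on the allele (1.67) but not in the species (-0.05, adjusted p = 0.418). Near Oxtr, the DNA repair gene Rad18 (0.25 between species, 0.30 between alleles) and the neighbouring gene Srgap3 (0.31 and 0.87) were higher in *P. polionotus* and on its allele, by less than Oxtr, while Thumpd3 was lower in *P. polionotus* (-0.15, adjusted p = 0.0493) and its alleles did not pass (0.12, adjusted p = 0.163). These neighbours were looked up after the members' values had been seen.

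The trial comparisons ask what differed between animals taken after the burrowing and the control trial. None of the members was called in any of them. In *P. polionotus* the log2 difference of burrowing over control was -0.30 for Avp (95% interval -0.78 to 0.19), -0.07 for Oxt (-1.03 to 0.89), 0.11 for Avpr1a (-0.12 to 0.33) and 0.006 for Oxtr (-0.24 to 0.25), with adjusted p = 0.998 for all 4. By limma 0% of all genes were called there, with 446 at an unadjusted p under 0.05. Without polionotus burrowing replicate 3 the Oxt value was 0.37.

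In *P. maniculatus* the differences were -0.18 for Avp (95% interval -0.67 to 0.30), -0.28 for Oxt (-1.24 to 0.68), 0.08 for Avpr1a (-0.15 to 0.31) and 0.13 for Oxtr (-0.11 to 0.38), where 0.00696% of genes were called. Avp means were lower after burrowing in both species, at 22.1 ± 2.59 against 28.3 ± 9.75 TPM in *P. polionotus* and 72.6 ± 7.02 against 83.6 ± 18.6 TPM in *P. maniculatus* (SD, n = 3 each). Averaged over the species this was -0.24 (95% interval -0.58 to 0.10), within the spread of the animals, with 0.00696% of all genes called. For Avpr1b the exact permutation test gave p = 0.5 in *P. polionotus* and 0.9 in *P. maniculatus*, where 3 against 3 libraries cannot go below 0.1. The difference between the trial responses of the species was -0.11 for Avp (SE 0.31) and 0.21 for Oxt (SE 0.61), and 0% of genes were called for it, with 415 at an unadjusted p under 0.05.

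In the hybrids, counts summed over both alleles were scaled to the library total as CPM and compared between trials. Avp stood at 9.33 ± 3.05 CPM in burrowing and 10.2 ± 2.49 CPM in control animals, and Oxt at 4.33 ± 3.23 CPM in burrowing and 6.12 ± 1.59 CPM in control animals (SD, n = 3 each). The receptors were nearly level, Avpr1a at 2.09 ± 0.23 CPM in burrowing and 1.92 ± 0.454 CPM in control animals and Oxtr at 1.46 ± 0.701 CPM in burrowing and 1.48 ± 0.396 CPM in control animals (SD, n = 3 each). Log2 differences by edgeR's quasi-likelihood test ran from -0.51 for Oxt (SE 0.52) to 0.08 for Avpr1a (SE 0.24), with adjusted p from 0.965 to 0.993. edgeR called 0% of genes there, with 90 at an unadjusted p under 0.05. The difference between trials in the allele effect was not called for any of the 4 genes by the same test (0.64 for Avp, SE 0.47, adjusted p = 1, and 0.16 without control replicate 2), where 0.226% of genes were called, 0.218% higher and 0.00838% lower. In simulated data with the same animals, this interaction test recovered 0% of genes changed by 1 log2 and 15% of genes changed by 1.5, so it could have missed changes of that size. The trial test on summed counts recovered 55% and 89% of such genes, so it too could have missed a change of 1 log2.

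The genes that make, release and answer these peptides were set beside the members, in lists chosen with earlier results of these data known. Their counts are to be read against the 32.6% of all genes called higher and 19.8% called lower, with a median of 0.06, and none of the lists was tested against other genes. Among 9 tested genes of peptide release and breakdown, 3 were higher and 2 lower in *P. polionotus*. Cd38, an enzyme that mouse oxytocin neurons need to release the peptide, averaged 1.08 ± 0.157 TPM over polionotus and 7.08 ± 0.79 TPM over maniculatus libraries (SD, n = 6 each), and its ranges of 0.922 to 1.34 TPM for polionotus and 6.28 to 8.31 TPM for maniculatus did not overlap (log2 -1.95, SE 0.06, adjusted p = 3.07e-09). Lnpep, the oxytocinase that cleaves both peptides, was higher by 0.69 (17.2 TPM in polionotus and 10.3 TPM in maniculatus brains, adjusted p = 1.01e-05), as were the peptidase Mme (0.46) and the calcium-permeable channel Trpm2 (0.66). The peptidase Prep was lower (-0.22) in the species but higher on the polionotus allele (2.06). The Lnpep alleles differed in the same direction as the species (1.04, adjusted p = 0.00238), and Cd38 was not analysed for alleles. The median of the list was 0.02.

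**Figure D5:**
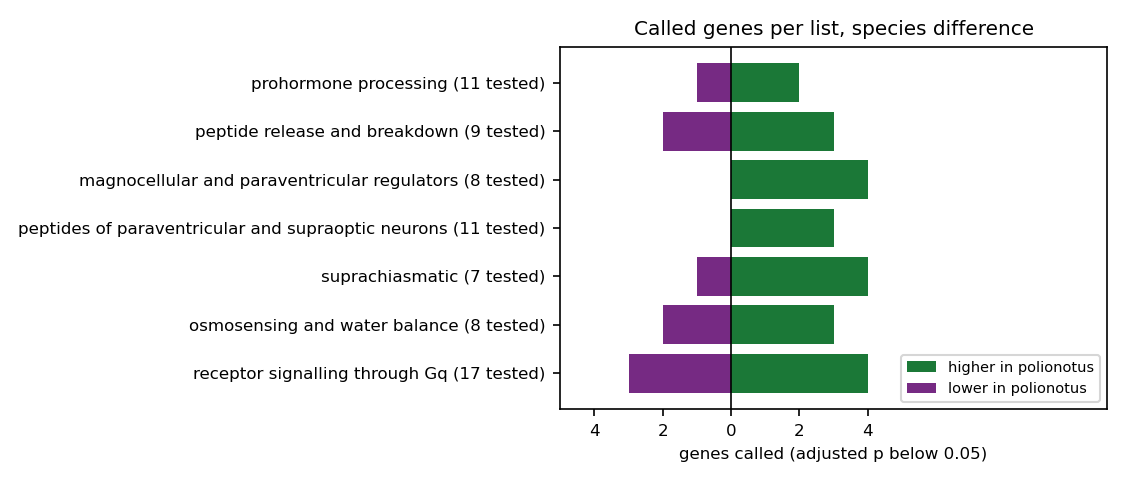
Genes called between the parental species in each of 7 lists, with the number higher in *P. polionotus* to the right and lower to the left, and the number tested beside each name. The list for regulators of magnocellular and paraventricular neurons has 4 higher and 0 lower of 8, and the prohormone processing genes 2 higher and 1 lower of 11. The 4 include Hopx, whose place among such regulators was not tested. Over all genes 52.4% were called.

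Prohormone processing genes had 2 higher, 1 lower and 8 not called of 11 tested (median -0.06). The convertase Pcsk2 (0.30) and the carboxypeptidase Cpe (0.35) were higher, and Pam, which amidates both peptides, was lower (-0.12, adjusted p = 0.0193). The convertase Pcsk1 (0.02) and the granins Chga (-0.12), Scg2 (-0.06) and Chgb (0.15) did not pass.

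The list for regulators of magnocellular and paraventricular neurons had 4 higher and 0 lower of 8 tested (median 0.16). Higher were Rasd1 (0.30), Creb3l1, a transcription factor of the rat Avp gene (0.32), and Pou3f2, needed for these neurons in mice (0.19, adjusted p = 0.0283). Hopx (0.66) was higher too, but its place among regulators of these neurons was not tested. Otp, a determinant of the same neurons, stood at 0.14 and did not pass. Otp averaged 1.22 TPM in polionotus and 0.997 TPM in maniculatus brains, against 61.0 and 38.2 TPM for Hopx. Which cells of the whole brain these values come from was not tested. On the alleles Hopx (-1.53) and Rasd1 (-1.02) went the other way. Caprin2, which binds vasopressin mRNA in rats, was at 0.05 and did not pass.

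Peptides made by the same or neighbouring hypothalamic neurons had 3 higher and 0 lower of 11 tested (median 0.06). Pdyn, the dynorphin precursor that vasopressin neurons also make, was higher, at 45.2 TPM in polionotus and 26.9 TPM in maniculatus brains (0.74, adjusted p = 0.000269), as were Gal (0.35) and Penk (0.42), while Crh (-0.27), Trh (0.22) and Cck (-0.20) did not pass. In whole brain, Pdyn thus differed between the species in the opposite direction to Avp. Whether this holds within vasopressin neurons was not tested. Genes of the suprachiasmatic nucleus, the clock centre that also makes vasopressin, had 4 higher and 1 lower of 7 tested (median 0.28). Higher were the receptor Prokr2 (0.62), the peptides Grp (0.83) and Prok2 (0.28) and Syt10 (0.48), and lower was Rora (-0.33), while Vip (0.09) did not pass.

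Osmosensing and water balance genes had 3 higher and 2 lower of 8 tested (median 0.09), with the channel Trpv1 (0.58), the relaxin-3 receptor Rxfp3 (0.44) and Slc12a2 (0.22) higher and the water channel Aqp4 (-0.29) and Trpv2 (-0.27) lower. Avpr2, the V2 receptor known from the kidney, averaged 4.83 TPM in polionotus and 4.69 TPM in maniculatus brains and did not pass (0.05). Receptor signalling genes of the Gq pathway had 4 higher and 3 lower of 17 tested (median 0.04). Arrb1, a beta-arrestin, was higher (0.38), as were the protein kinase C gene Prkcb (0.18) and the regulator Rgs4 (0.22). Gnaq, the Gq alpha subunit itself, was lower (-0.17), as were the regulators Grk5 (-0.23) and Rgs2 (-0.31). In the trial comparisons 0 genes of these 7 lists were called in either species or in the hybrids.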

How the data were processed

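Parental libraries came as TPM that the authors computed. Hybrid libraries were deposited as raw counts for each gene on each parental allele, and every gene there averaged over 20 counts per animal. STAR 2.4.2a is named in the submitters' processing notes. No source used here gives the quantifier, build, annotation or allele assignment. A row with no gene name was left out. Parental log2(TPM + 1) was tested with limma 3.58.1 (1 mean per group, mean trend) in R 4.3.3, for the 14366 genes averaging 1 TPM or more, and hybrid counts with edgeR 4.0.16 (TMM, quasi-likelihood), alleles with the animal as a block. DESeq2 1.42.0 was an alternative. The model of species against alleles added 1 TPM and 1 CPM. Single values under the minimum and ratios were tested by exact permutation.

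Members and lists were chosen with earlier results of these data known. All 5 members were described. From each list up to 4 genes with the smallest species p were named with defining markers; further genes of the lists, the neighbours, the removal of 3 libraries and the constant of 0.01 TPM were chosen after values were seen. Some genes of the lists are counted but not reported here by name. TPM keep no depth. At most 0.104% of genes were identical between replicates. The fits were tested on simulated data: of 200 genes changed by 1 log2, the species test recovered 96% and the allele test 73.5%.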

Additional observations from a re-analysis of the deposited data

Results flagged for a closer look

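The polionotus share of Avp in F1 control replicate 2 was 23.3% (27 of 116 counts), far below the other 5 hybrid animals, which ran from 43.8% to 51.1%. Its 95% Wilson interval of 16.5% to 31.7% touched none of theirs by counting error alone. In the same animal the shares of Oxt (54.5%) and Avpr1a (55.6%) lay within the range of the others and that of Oxtr (69.6%) lay below it, the others running from 75% to 88.2%, and the share over all genes was 52.8%. It was the only value flagged in 18 sets of 6 animals, where chance flags about 1 in 20, and what set it apart was not tested.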

How the results depend on the processing

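The species differences of Avp and Oxtr and the allele difference of Oxtr kept their direction and call under every alternative run. The exact test of Avpr1b also kept its call (0.19 to 2.25, highest p 0.00433). Its species ranges do not overlap, so another constant or the loss of 1 library could not have changed that call. Ranges were -1.86 to -1.47 for Avp, 0.61 to 1.31 for Oxtr between species, and 1.95 to 2.36 for Oxtr alleles. Quantile and median scaling, which turn the balance of calls over all genes, left Avp at -1.68 in each and Oxtr at 1.03 and 1.02. For species against alleles 2 members were called, and 1 with a pseudocount of 0.1, with the replicate block and without 1 replicate in most cases (range 1 to 2): Oxtr was 0.34 with the replicate block (adjusted p = 0.0574), 0.29 to 0.42 without 1 replicate (adjusted p = 0.014 to 0.0876), -0.41 with 0.1 and -0.65 with 0.01 TPM and 0.5 of a read, where the constant sets how far low allele counts are shrunk. The alleles gave 1 to 2 called members without 1 replicate, through Avpr1a.

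Values that did not pass changed sign as follows, and the cause was not tested. Without the 3 libraries that stood apart, an alternative chosen after the data were seen, Oxt was -0.14 between control animals and 0.35 between trials in *P. polionotus*, Oxtr -0.093 between those trials, and the species by trial interaction 0.20 for Avp and -0.012 for Avpr1a. The Oxt allele difference was -0.0097 with TMM over the allele columns, and Avpr1a in species against alleles 0.026 with a pseudocount of 5 and 0.016 when centred. Without 1 replicate, Oxt ranged from -0.17 to 0.63 between control animals, -0.35 to 0.37 between trials in *P. polionotus*, -0.67 to 0.13 in *P. maniculatus*, -0.37 to 0.044 over both and -0.20 to 0.65 for the interaction. The interaction ranged from -0.36 to 0.13 for Avp and -0.063 to 0.12 for Avpr1a, and the trial difference of Oxtr in *P. polionotus* from -0.10 to 0.11. In F1 trials the ranges were -0.41 to 0.098 for Avp, -0.065 to 0.18 for Avpr1a and -0.52 to 0.24 for Oxtr, for allele by trial -0.090 to 0.39 for Avpr1a and -0.25 to 0.92 for Oxtr, and for species against alleles -0.070 to 0.041 for Avpr1a. Correlations of same-numbered animals ran from -0.23 to 0.55 in the parents, with 5 of 18 over 0.1, and from -0.57 to 0.19 in the hybrids, with 1 of 3 over 0.1, so the numbers were not taken as pairs. Differently numbered animals reached 0.30 in the parents, with 3 of 36 over 0.1, and 0.64 in the hybrids, with 2 of 6 over 0.1. Those hybrids were control replicate 2 with burrowing replicate 1 (0.64) and control replicate 1 with burrowing replicate 2 (0.46). What links them was not tested. All 3 same-numbered pairs were over 0.1 (0.18 to 0.55) between polionotus burrowing and maniculatus control animals. No comparison sets these groups alone against each other. They do enter the species difference averaged over trials and the trial difference averaged over species, with opposite signs. The replicate block gave -1.62 for Avp between species, and the Oxtr call in species against alleles, given above, was the only member call it changed. Depth limits Oxtr and Avpr1a alleles, at 12 to 120 counts per animal.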

Other observations

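Within *P. polionotus*, libraries with more Oxt had less Oxtr (Pearson r = -0.95, exact permutation p = 0.00139; Spearman rho = -1, exact permutation p = 0.00278, n = 6 libraries). Of 24 relations computed within species, among the members and with a hypothalamus list, it was the only one that passed the adjustment (adjusted p = 0.0333), and r was -0.90 without the 2 libraries farthest from the median of Oxt, a value that rests on few libraries. Burrowing replicate 3, among the libraries that stood apart, had the lowest Oxt (53.8 TPM) and the highest Oxtr (7.93 TPM). The relation without all libraries that stood apart is not given here. In *P. maniculatus* r was 0.14 (exact permutation p = 0.782, n = 6), and the difference between the species was not tested. Avp and Oxt themselves had r of -0.05 in *P. polionotus* and 0.50 in *P. maniculatus* (exact permutation p = 0.913 and 0.329, n = 6 each). The mean of the hypothalamus list had r with Avp of 0.40 in *P. polionotus* and -0.11 in *P. maniculatus* (exact permutation p = 0.46 and 0.794, n = 6 each).

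The genes whose levels followed each member most closely across the 12 parental libraries were ranked by Pearson r of deviations from the group means on log2(TPM + 1), among 9668 or 9669 other genes with at least 5 TPM. They are given as a description, since the highest of so many values is high by selection. They were Fkbp11, Tecpr1 and Sars for Avp (0.94, 0.94 and 0.93), Ell, Grik5 and Cdk5r1 for Oxt (0.97, 0.96 and 0.95), Actr3, Zmym2 and the convertase Pcsk1 for Avpr1a (0.93, 0.93 and 0.90), and Gmpr, Srd5a3 and Fam117b for Oxtr (0.93, 0.90 and 0.90). Without the 2 libraries farthest from the median of the member, these values ran from 0.82 to 0.95.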
